A study of Homo sapiens with 18 samples.

Results

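The proteins of the mitochondrial ribosome were followed at the transcript level in 2 human melanoma lines. The members were chosen by symbol alone: every gene whose current symbol is MRPL or MRPS followed by a digit and which had a probe set naming no other gene, with the probe set of highest mean signal taken for each gene. This gave 73 genes, 47 MRPL and 26 MRPS, among 11232 genes with such a probe set. All 73 were among the 10940 genes that passed the filter on low values. MRPS24 and MRPL53 were not included because their probe sets also named a neighbouring gene, and MRPL20-AS1, an antisense RNA, is not a protein gene.

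A375M2 is a metastatic derivative of the melanoma line A375, and C32 is a second melanoma line. Each of 6 groups had 3 arrays, and every group carried a lentiviral vector. A375M2 cells carried GFP, full-length His-tagged PMEL, shRNA against FHL2 or shRNA against NFYA, and C32 cells carried GFP or shRNA against FHL2. PMEL is a structural protein of melanosomes, FHL2 is a LIM-domain scaffold protein, and NFYA is a subunit of NF-Y, the factor that binds CCAAT boxes. PMEL was driven by a CMV promoter with eGFP behind an internal ribosome entry site and its cells were held in blasticidin. The FHL2 shRNA was a pool of 3 constructs held in puromycin, and cells with the highest GFP were sorted. The labels name an empty GFP vector of the PMEL backbone and a separate GFP control virus for the shRNA. They do not say which of them the GFP arrays carried, and no group carried a non-targeting shRNA. The A375M2 arms other than the NFYA shRNA are described as coming from separate experiments processed together. For the other arms nothing was stated, so p-values there measure the spread between arrays, which may be technical.

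Mitochondrial ribosomes translate the few proteins encoded by mitochondrial DNA, which are core subunits of the respiratory chain and ATP synthase. All their proteins are encoded in the nucleus, made in the cytosol and imported, whereas their ribosomal RNA comes from the mitochondrial genome. Some have bacterial homologs, and others are found in mitochondrial ribosomes and not in bacterial ones. MRPL proteins belong to the large subunit and MRPS proteins to the small one, except that MRPS18A and MRPS30 sit in the large subunit.

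Before the results, 3 arrays need a remark. The third C32 GFP array was almost exactly the average of the first and second. It deviated from their average with an SD of 0.0076 on the log2 scale (17311 probe sets), whereas the SDs of the other arrays were 0.115 to 0.173. That array was left out, so that C32 GFP has n = 2. The third replicates of A375M2 GFP and A375M2 PMEL deviated from the means of their groups' first and second replicates in mirror image (r = -0.998, with an SD of 0.121 for each deviation and 0.0067 for their sum), so together they add 1 independent value. Results are also given without both. Values shared exactly between arrays, counted over all probe sets, separated sets. The third A375M2 GFP array shared 0 values with the first and second, which shared 1219 with each other. It shared 537 with the third PMEL array, and each of these 2 shared 221 with the third C32 GFP array. The A375M2 shRNA arrays shared 0 with any A375M2 GFP or PMEL array. Each A375M2 shRNA group lay in another such set than its GFP control, so in A375M2 an effect of the shRNA and one of the array set cannot be told apart.

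The labels were checked on the targeted genes. With FHL2 shRNA, FHL2 signal differed from GFP by -4.04 ± 0.14 (log2 difference ± SE) in A375M2 and by -5.24 ± 0.16 in C32. PMEL signal was higher by 3.38 ± 0.13 in the PMEL cells, and the NFYA difference was -2.06 ± 0.094 in the NFYA shRNA cells. NFYA also differed by -0.73 ± 0.094 in the A375M2 FHL2 shRNA cells. SOX10, which marks the melanocyte lineage, was at 11.79 to 12.88 in all 6 groups. MLANA, another defining marker, was at 2.18 to 2.38 in the A375M2 groups and at 12.25 to 14.00 in the C32 groups. Other melanocyte markers went otherwise. GPR143 averaged 8.18 in A375M2 GFP and 2.18 in both C32 groups. MITF averaged 14.24 in A375M2 GFP, 10.05 with shFHL2 and 8.95 with shNFYA. PMEL, TYR and GPR143 were under 4 on every array of both A375M2 shRNA groups.

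Promoter sequence from RefSeq (GRCh38.p14) matched 66 of the 73 members, from 250 bases before to 50 bases after the start. Since NF-Y was a target of the study, promoters with CCAAT boxes are shown first. MRPS12, MRPL4 and MRPL41 each held 4, the most of any member, and MRPL41, whose signal lay near the filter value, is not printed. The MRPS12 sequence, with 4 boxes in capitals, is chr19:38930764-38930943, plus strand, and is cut where the divergently transcribed SARS2 begins. MRPL4 has 4 boxes on the opposite strand, written ATTGG, in chr19:10251701-10251950, plus strand. MRPL32, cut where the divergent PSMA2 begins, is chr7:42932175-42932375, plus strand, with its single ATTGG in capitals. MRPL52, chr14:22829637-22829886, plus strand, is shown for its pair of YY1 cores, AAGATGGC, in capitals. Each sequence ends at the base before the annotated start.
MRPS12: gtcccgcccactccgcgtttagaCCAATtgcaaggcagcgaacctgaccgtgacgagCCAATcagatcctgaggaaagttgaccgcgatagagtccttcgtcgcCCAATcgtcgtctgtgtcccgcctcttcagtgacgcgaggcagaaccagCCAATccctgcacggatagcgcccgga
MRPL4: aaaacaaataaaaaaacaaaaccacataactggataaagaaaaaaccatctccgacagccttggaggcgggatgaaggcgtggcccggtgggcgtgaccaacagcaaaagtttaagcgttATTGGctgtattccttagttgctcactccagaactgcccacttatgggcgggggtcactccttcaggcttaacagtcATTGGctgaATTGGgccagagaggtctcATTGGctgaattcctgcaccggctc
MRPL32: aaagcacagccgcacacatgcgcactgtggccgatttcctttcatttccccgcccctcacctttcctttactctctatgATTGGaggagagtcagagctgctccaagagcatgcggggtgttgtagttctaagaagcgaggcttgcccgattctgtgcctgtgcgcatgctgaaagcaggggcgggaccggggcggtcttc
MRPL52: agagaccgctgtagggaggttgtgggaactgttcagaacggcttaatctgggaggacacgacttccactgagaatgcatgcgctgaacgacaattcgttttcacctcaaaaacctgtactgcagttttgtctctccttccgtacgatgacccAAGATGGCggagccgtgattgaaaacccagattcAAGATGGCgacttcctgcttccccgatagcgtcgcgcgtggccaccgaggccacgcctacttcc
The boxes of MRPS12 begin at -157, -123, -76 and -27 relative to the start, and those of MRPL4 at -130, -53, -44 and -25. The YY1 cores of MRPL52 begin at -98 and -64.

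CCAAT was no commoner among the members than elsewhere. It was found in 20 of 66 member promoters (30.3%), against 37.2% of 9058 promoters of the same length for all genes tested. The core bound by ETS factors such as GABP, CCGGAAG, was in 28 of 66 (42.4%) against 19.9%, and the YY1 core AAGATGGC in 19 of 66 (28.8%) against 5.65%. GGGCGG, the GC box, was in 39 (59.1%) against 69.9%, the E-box CACGTG in 6 (9.09%) against 10.6%, and the TATA box TATAAA in 2 (3.03%) against 5.55%. The full NRF1 palindrome was in 1 member promoter (1.52%) against 2.44%, and its parts GCATGCGC and TGCGCATGC in 6 and 5, against 5.70% and 2.84%. CCGGAA, the shorter ETS core that overlaps the longer, was in 37 (56.1%) against 30.4%. The palindrome bound by ZBTB33 was in 1 (1.52%) against 0.949%, and the CRE TGACGTCA, its longer form GTGACGTCA and the ZNF143 motif in 0 each, against 3.27%, 2.48% and 0.552%. All 14 motifs were searched on both strands of the 300 bases and were chosen with results of these data known, so the shares are a description and a match is not a binding site. A protein-coding neighbour transcribed from the opposite strand and starting within 1000 bases was present for 18 of 66 members (27.3%), against 13.9% of 8738 genes. MRPL46 and MRPS11 are such a pair, 320 bases apart.

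In C32, mitochondrial ribosomal protein transcripts were higher with FHL2 shRNA than with GFP, in both subunits. Called means an adjusted p under 0.05 in limma, with Benjamini-Hochberg adjustment over all genes tested. Of the 73 members, 60 rose, 2 fell and 11 were not called. The members counted here and below include MRPS15 and MRPL41, which passed the filter through groups in which they were high. MRPS15 was below 4 with GFP in both lines, and the only MRPL41 group mean above 4 was that of C32 shFHL2 (4.28). Their differences from GFP are only a description. Among all 10940 genes 62.6% were called, 32.2% higher and 30.3% lower. The median difference of the members was 0.39 on the log2 scale, against 0.00 for all genes, with quartiles of 0.20 and 0.62. Of the 47 MRPL genes 40 rose and 0 fell, and of the 26 MRPS genes 20 rose and 2 fell. The changes were small: only MRPS15 was called past 2-fold, against 3.52% of all genes higher and 5.04% lower by as much. Without the third A375M2 GFP and PMEL arrays, which here bear only on the estimate of spread, 60 rose and 1 fell. In bulk RNA, fewer cells of a type and less RNA per cell cannot be told apart.

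MRPL32, a large subunit protein whose maturation by a mitochondrial protease is tied to ribosome assembly, read 11.17 and 11.21 on the C32 GFP arrays and 12.01, 12.00 and 12.16 on the C32 shFHL2 arrays. The groups did not overlap, and the difference was 0.87 ± 0.049 (SE), a 1.83-fold rise (adjusted p = 6.5e-11). MRPL39, found in mitochondrial but not bacterial ribosomes, read 10.84 and 10.84 against 11.71, 11.78 and 11.71. All shFHL2 arrays were above both GFP arrays, by 0.90 ± 0.047. MRPL44, which sits near the exit of the peptide tunnel and has a fold related to RNase III, read 10.69 and 10.64 against 11.45, 11.56 and 11.52. Its difference was 0.85 ± 0.053 (adjusted p = 2.3e-10), from a probe set that was already higher in C32 than in A375M2. MRPL11, at the base of the stalk that recruits translation factors, read 8.68 and 8.58 against 9.36, 9.59 and 9.37, a difference of 0.81 ± 0.098.

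MRPS15, a small subunit protein that binds ribosomal RNA, had the largest rise, from 3.24 and 3.36 to 5.88, 5.63 and 5.72 (2.44 ± 0.20, 5.42-fold). These are among the lowest signals of any member, near the value of 4 used to filter probe sets, so the size of its difference depends on the background correction. Its signals with GFP were below 4 in both lines. It thus passed the filter through the shRNA groups, in which it was high, and its rise is only a description. MRPS12, of the decoding centre, read 11.34 and 11.38 against 12.01, 12.12 and 12.05, a rise of 0.70 ± 0.046. MRPS30, in the central protuberance of the large subunit, rose by 0.72 ± 0.042, and all 3 of its probe sets were called higher (0.72, 0.67 and 0.44). MRPS6 fell by 0.26 on the log2 scale (12.91 and 12.88 against 12.67, 12.65 and 12.58, adjusted p = 6.1e-06). MRPS25 read 9.98 and 9.98 against 9.82, 9.66 and 9.85, and its call (difference -0.20 ± 0.084, adjusted p = 0.046) was lost without C32 GFP replicate 1 (adjusted p = 0.14), C32 GFP replicate 2 (0.13), C32 shFHL2 replicate 1 (0.053) or C32 shFHL2 replicate 2 (0.18). It was also lost without any 1 of 6 A375M2 arrays, which bear on it only through the spread (0.052 to 0.055). Among members that were not called were MRPL12 (difference -0.02 ± 0.059), MRPL28 (0.15 ± 0.092), MRPL45 (0.16 ± 0.073), MRPL55 (-0.01 ± 0.064) and MRPL2 (0.02 ± 0.15).

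**Figure D1:**
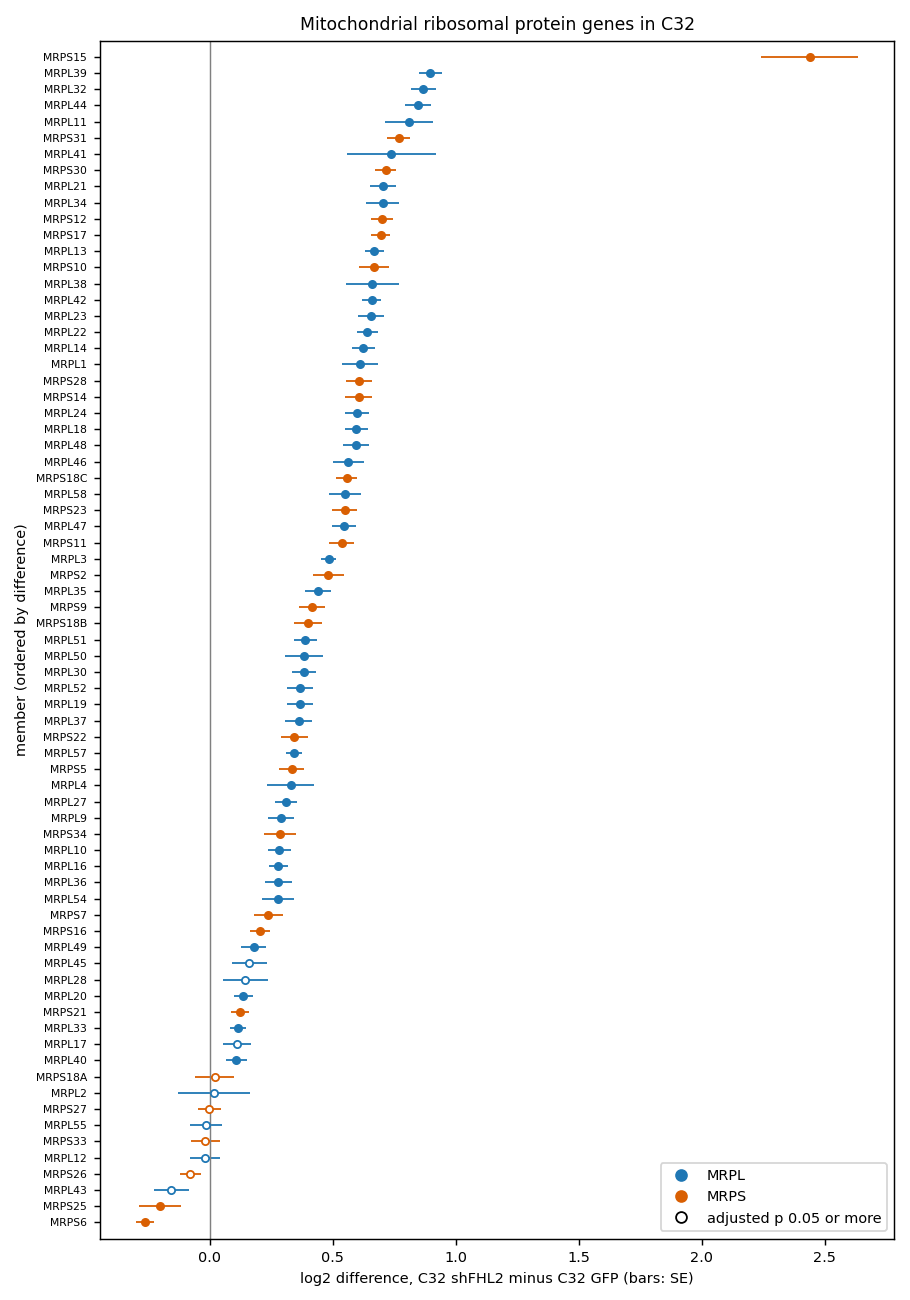
Log2 difference of each of the 73 members between C32 shFHL2 (n = 3) and C32 GFP (n = 2), ordered by size, with bars for the SE. Filled points were called at an adjusted p under 0.05. All but MRPS15 (2.44) lie between -0.26 and 0.90, and 60 filled points are above 0 against 2 below.

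The structural groups of the large subunit were counted, beside 32.2% higher and 30.3% lower among all genes. All 8 proteins listed for the central protuberance rose (median 0.58), among them MRPL46 (0.56 ± 0.063), MRPL38 (0.66 ± 0.11) and MRPL48 (0.60). That list may not be complete, since neither MRPL58 nor GADD45GIP1 was in it. At the peptide exit 4 of 5 rose, MRPL22, MRPL23, MRPL24 and MRPL44, while MRPL45, which anchors the ribosome to the inner membrane, was not called. Of the 3 stalk proteins measured, MRPL10 (0.28 ± 0.047) and MRPL11 rose and MRPL12 was not called. Of 45 members with bacterial homologs 39 rose and 1 fell (median 0.44), and of 28 particular to mitochondria 21 rose and 1 fell (median 0.36).

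Genes outside the family that serve mitochondrial translation were counted from lists, beside 32.2% higher and 30.3% lower among all genes. The 4 measured mitochondrial ribosomal proteins with other symbols all rose: DAP3 by 0.72 ± 0.035, GADD45GIP1 by 0.60 ± 0.056, PTCD3 by 0.59 ± 0.066 and CHCHD1 by 0.56 ± 0.071. Of 14 translation factors 10 rose and 1 fell, with the elongation factor partner TSFM at 0.67 ± 0.069 and MTFMT, which formylates the initiator tRNA, at -0.46 ± 0.068. Of 13 genes of mitochondrial transcription and RNA stability 10 rose and 0 fell, including SLIRP (0.66 ± 0.039), TFB2M (0.49 ± 0.043) and TFAM, which packages mitochondrial DNA (0.56 ± 0.073). Of 23 assembly and rRNA modification factors 10 rose and 3 fell (median 0.07), led by the rRNA methyltransferase TFB1M (0.97 ± 0.070). Of 15 mitochondrial aminoacyl-tRNA synthetases 7 rose and 1 fell (median 0.17). The ribosomal proteins of the cytosol went otherwise: of 51, 12 rose and 21 fell, with a median of -0.05. Among 10 regulators 4 rose and 3 fell, with the coactivator PPARGC1A at -0.89 ± 0.20 and MYC, not called, at 0.04 ± 0.049.

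Control probes also differed between these C32 groups. The poly-A RNA spiked into the samples averaged 9.04 on the 3 C32 GFP arrays and 5.61 on the C32 shFHL2 arrays, the hybridisation spike-in 12.42 and 11.46, 18S 13.28 and 13.94, and the actin 3′ minus 5′ end difference 1.07 and 0.87. Melanocyte markers fell in 7 of the 8 measured and rose in 0, their mean ranging over arrays from 11.35 to 11.43 with GFP and from 9.42 to 9.46 with FHL2 shRNA, GPR143 being under 4 in both. The single leukocyte marker past the filter of 4 listed, PTPRC, was at 8.63 and 7.80, and the mean of 5 fibroblast markers ranged from 7.05 to 7.20 and from 7.12 to 7.24, with LUM under 4 in both. The part of these in the members' differences was not tested.

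C32 GFP cells had less signal than A375M2 GFP cells for most of the family. Of the 73 members 56 were lower in C32 and 11 higher, against 47.2% lower and 38.7% higher among all genes (85.9% called), with a median of -0.84 for the members and -0.10 for all genes. There were 32 members lower by 2-fold or more (43.8%, against 24.8% of all genes) and 2 higher by as much (against 18.3%). Centring each array on its median moved the all-gene median from -0.10 to 0.10 and gave 52 lower and 15 higher. Without the third A375M2 GFP and PMEL arrays 55 were lower and 9 higher. The cytosolic ribosomal proteins were also mostly lower, 46 of 51 with 4 higher and a median of -0.49.

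The lines also differed in array set and control probes. The C32 GFP arrays used shared 0 values with any A375M2 GFP array and 42 to 49 with each A375M2 shRNA array, so line and array set cannot be told apart here. On the A375M2 GFP and the 3 C32 GFP arrays, the poly-A spike-in averaged 6.93 and 9.04, the hybridisation spike-in 11.67 and 12.42, 18S 12.52 and 13.28, and the actin 3′ minus 5′ end difference 0.61 and 1.07. Of 8 melanocyte markers 7 were higher in C32 and 1 lower, their mean ranging over arrays from 8.73 to 8.78 in A375M2 and from 11.35 to 11.43 in C32. Of 5 fibroblast markers 3 were higher and 2 lower (7.55 to 7.58 and 7.05 to 7.20), and of 2 keratinocyte markers 1 was higher and 0 lower. PTPRC was at 2.27 and 8.63. The part of these in the members' differences was not tested.

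MRPS16, a small subunit protein with a bacterial homolog, differed most. It read 11.86, 11.77 and 11.78 on the A375M2 GFP arrays and 9.33 and 9.43 on the C32 GFP arrays, without overlap (-2.42 ± 0.041, a 5.37-fold lower signal, adjusted p = 3.3e-19). Its other probe set differed by -0.49. MRPL58, a peptidyl-tRNA hydrolase that is built into the ribosome and rescues stalled ones, read 11.15, 10.91 and 11.04 against 8.79 and 8.58 (-2.35 ± 0.066). The stalk proteins MRPL10 (-2.28 ± 0.047) and MRPL12 (-2.24 ± 0.059) were lower by like amounts, and the third, MRPL11, was higher by 0.34 ± 0.098. MRPL12 read 12.32, 12.20 and 12.30 in A375M2 against 9.90 and 10.16 in C32. MRPL2, at the peptidyl transferase centre, read 6.69, 6.45 and 6.40 against 4.31 and 4.29 (-2.21 ± 0.15), the latter close to the filter value. MRPL28, once described as the melanoma antigen p15, was lower by a factor of 2.40 (-1.26 ± 0.092), and MRPL45 by 3.67-fold (-1.87 ± 0.073).

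Of the members that were higher in C32, MRPL1, of the stalk beside the tRNA exit site, read 9.47 and 9.28 against 7.81, 7.93 and 8.02 (1.46 ± 0.073). MRPS25 read 9.98 and 9.98 against 8.47, 8.63 and 8.56 (1.43 ± 0.084). MRPL19 (0.96 ± 0.053), MRPS18C (0.96 ± 0.042) and MRPL50 (0.75 ± 0.076) followed.

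C32 GFP had the lowest of the 6 group means for 48 of 73 members (65.8%), against 23.8% of all genes. The comparison between the lines and the FHL2 shRNA comparison in C32 both use the C32 GFP arrays, so they are not independent. The median of the members was 10.39 and 10.35 on the C32 GFP arrays used and 10.91, 10.94 and 11.01 on the C32 shFHL2 arrays. It was 11.19 to 11.27 in A375M2 GFP, 11.22 to 11.24 in PMEL, 11.34 to 11.36 in shFHL2 and 11.47 to 11.52 in shNFYA. A375M2 GFP and PMEL overlapped, and no other pair of groups did. The median of all genes lay between 8.96 and 9.21 on every array used.

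**Figure D2:**
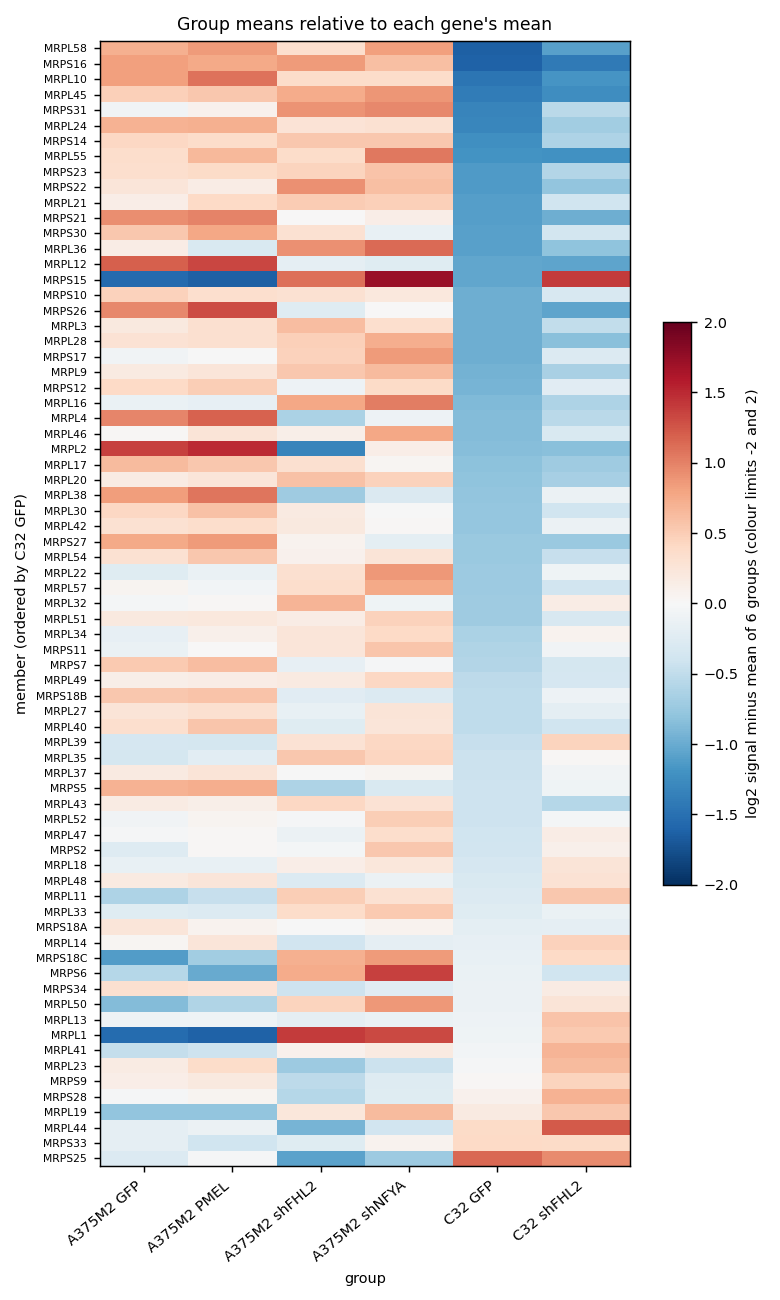
Group means of the 73 members on the log2 scale, each minus that member's mean over the 6 groups, with colour limits at -2 and 2 and members ordered by C32 GFP. The C32 GFP column (n = 2, other columns n = 3) is the lowest of the 6 for 48 members, while MRPS25 and MRPL1 are higher in C32 GFP than in A375M2 GFP.

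In A375M2, FHL2 shRNA moved members in both directions. Against GFP, 32 rose and 33 fell, with a median of 0.02. Among all genes 41.1% rose and 44.3% fell, so the share of members called, 65 of 73, was close to the background of 85.4%. By 2-fold or more, 7 rose and 6 fell, against 15.2% and 16.2%. Centring each array gave 37 higher and 27 lower, with the all-gene median moving from -0.04 to 0.10. Without the third A375M2 GFP and PMEL arrays 30 rose and 33 fell. NFYA shRNA was compared with the same GFP arrays: 37 rose and 29 fell, against 43.5% and 43.3% of all genes (86.8% called), with a median of 0.13. By 2-fold or more, 9 rose and 4 fell, against 17.3% and 18.5%. Centred arrays gave 41 and 22 with the all-gene median moving from 0.00 to 0.13, and the reduced set gave 36 and 29.

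MRPL1 read 7.81, 7.93 and 8.02 on the GFP arrays, 10.87, 10.80 and 10.88 on the shFHL2 arrays and 10.75, 10.80 and 10.81 on the shNFYA arrays. Both shRNA groups lay far above GFP, by 2.93 ± 0.065 and 2.86 ± 0.065, a 7.63-fold and a 7.28-fold rise. MRPS15 read 2.70, 2.94 and 2.73 with GFP, 5.69, 5.69 and 4.98 with shFHL2 and 6.43, 5.96 and 5.81 with shNFYA, with differences of 2.66 ± 0.18 and 3.28 ± 0.18 from a level below the filter value. MRPS18C rose by 1.83 ± 0.038 and 1.96 ± 0.038, MRPS6 by 1.31 ± 0.033 and 1.94 ± 0.033, and MRPL50 by 1.31 ± 0.068 and 1.74 ± 0.068. MRPS6, the bacterial homolog of which lies on the platform of the small subunit, read 12.49, 12.46 and 12.42 with GFP, 13.74, 13.82 and 13.76 with shFHL2 and 14.37, 14.40 and 14.43 with shNFYA, so the 3 groups did not overlap.

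The largest falls were in MRPL2, MRPL4, MRPL38, MRPL12 and MRPS5. MRPL2 read 3.74, 4.16 and 3.61 with shFHL2 and 5.18, 5.34 and 5.32 with shNFYA against 6.69, 6.45 and 6.40 with GFP, differences of -2.68 ± 0.13 and -1.23 ± 0.13. MRPL4, which lines the peptide tunnel, read 9.98, 9.77 and 10.06 with GFP, 8.26, 8.38 and 8.36 with shFHL2 and 8.77, 8.92 and 8.88 with shNFYA (-1.61 ± 0.086 and -1.08 ± 0.086). MRPL38 read 8.96, 8.78 and 8.92, then 7.35 on each shFHL2 array, then 7.53, 7.73 and 8.05 (-1.54 ± 0.097 and -1.12 ± 0.097). MRPL12, the stalk protein that also binds the mitochondrial RNA polymerase, read 12.32, 12.20 and 12.30, then 10.96, 10.84 and 10.85, then 10.81, 10.83 and 10.86 (-1.39 ± 0.053 and -1.44 ± 0.053). MRPS5, a small subunit protein, read 11.01, 11.01 and 10.93, then 9.68, 9.73 and 9.62, then 9.91, 10.03 and 10.02. It differed by -1.31 ± 0.046 with shFHL2 and fell by 1.00 with shNFYA. Each of these groups lay below GFP without overlap. MRPL58 fell by 0.39 on the log2 scale with shFHL2 (-0.39 ± 0.059) and was not called with shNFYA (0.10 ± 0.059).

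Among the other lists, A375M2 shFHL2 had 12 of 15 mitochondrial aminoacyl-tRNA synthetases lower and 2 higher (median -0.42), with AARS2 at -2.86 and SARS2 at -1.28. Of 13 transcription and RNA stability genes 9 fell and 3 rose, with the polymerase POLRMT at -2.32 and TFAM at 1.00, and of 14 translation factors 6 fell and 5 rose. With shNFYA these lists had 7 lower and 5 higher, 5 and 5, and 4 and 7. MYC differed by -2.28 with shFHL2 and -1.79 with shNFYA, and PPARGC1A by -3.07 and -4.85. The cytosolic ribosomal proteins had 28 higher and 10 lower of 51 with shFHL2 and 26 and 10 with shNFYA. Beside these lists, 41.1% of all genes were higher and 44.3% lower with shFHL2, and 43.5% and 43.3% with shNFYA.

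Beside these comparisons stood differences in control probes and markers. The 18S signal averaged 12.52 with GFP, 14.18 with shFHL2 and 14.19 with shNFYA, and the actin 3′ minus 5′ end difference was 0.61, 1.07 and 1.19. All 8 melanocyte markers measured were lower with shFHL2 and 7 of 8 with shNFYA, their mean ranging from 8.73 to 8.78 with GFP, 5.97 to 6.03 with shFHL2 and 5.70 to 5.88 with shNFYA. MLANA was under 4 in all of these groups. Of 5 fibroblast markers 4 were lower and 1 higher in each shRNA group, from a mean of 7.55 to 7.58 with GFP to 5.51 to 5.56 and 5.37 to 5.50, and COL1A2 was under 4 throughout. Both keratinocyte markers measured, of 6 listed, were higher in each shRNA group. KRT10 averaged 12.17 with GFP, 13.63 with shFHL2 and 13.32 with shNFYA, and KRT14 averaged 2.49, 2.97 and 5.08, under 4 except with shNFYA. The part of these in the members' differences was not tested.

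Members with and without CCAAT boxes were counted separately in the NFYA shRNA comparison. Of the 20 members with CCAAT 8 rose and 8 fell (median 0.00), and of the 46 without it 27 rose and 17 fell (median 0.26). Among all genes, 44.3% with CCAAT rose and 42.7% fell, and 44.1% without it rose and 42.7% fell. Their medians were 0.02 with CCAAT and 0.02 without. MRPS12, whose 4 boxes are printed above, read 12.74, 12.60 and 12.71 with GFP and 12.66, 12.64 and 12.74 with shNFYA, which overlapped (0.00 ± 0.041, adjusted p = 0.92). The other MRPS12 probe sets gave higher differences with shNFYA, as given below. MRPL4, also with 4, fell in both shRNA groups by the probe set selected, while another of its probe sets was called higher with shNFYA. MRPL41, the third with 4, rose by 0.66 ± 0.16 with shNFYA and by 0.57 ± 0.16 with shFHL2, from a GFP mean of 3.11, below the filter value. Only its C32 shFHL2 mean, 4.28, was above that value. Of the 15 divergent partners measured, 9 rose and 4 fell with shNFYA, and 8 rose and 5 fell with shFHL2. Among all genes 43.5% rose and 43.3% fell with shNFYA, and 41.1% and 44.3% with shFHL2. The partners counted include MRPL46 and MRPS11, which are members and partners of each other. SARS2, beside MRPS12, differed by -1.29 and -1.28, PSMA2, beside MRPL32, by -0.97 and -0.94, and HELQ, beside MRPS18C, by 0.84 and 1.01.

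The FHL2 and NFYA shRNA groups of A375M2 were compared directly, within the same set of arrays by shared values. Of the members 44 were lower with FHL2 shRNA and 10 higher, against 38.3% and 31.8% of all genes (70.1% called), with a median of -0.16 against -0.03. By 2-fold or more, 1 was lower (4.02% of all genes) and 0 higher (6.37%). Lower with shFHL2 were MRPL2 (-1.45 ± 0.13), MRPL55 (-0.69 ± 0.058), MRPL46 (-0.66 ± 0.056), MRPS6 (-0.63 ± 0.033) and MRPS15 (-0.62 ± 0.18). MRPL55 read 9.36, 9.34 and 9.27 with shFHL2 and 9.94, 9.98 and 10.12 with shNFYA. Higher with shFHL2 were MRPL32 (0.76 ± 0.044), MRPS30 (0.45 ± 0.037), MRPS22 (0.31), MRPL17 (0.28) and MRPL3 (0.28). MRPL32 read 12.60, 12.59 and 12.55 with shFHL2, 11.83, 11.78 and 11.85 with shNFYA and 11.94, 11.79 and 11.86 with GFP, so that it was high with FHL2 shRNA and overlapped between NFYA shRNA and GFP. MRPS30 read 11.74, 11.78 and 11.75 against 11.30, 11.25 and 11.37, and its other probe sets differed more (2.30 and 1.16). Against GFP, the 3 MRPS30 probe sets differed with NFYA shRNA by -0.70, -3.88 and -2.47.

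**Figure D3:**
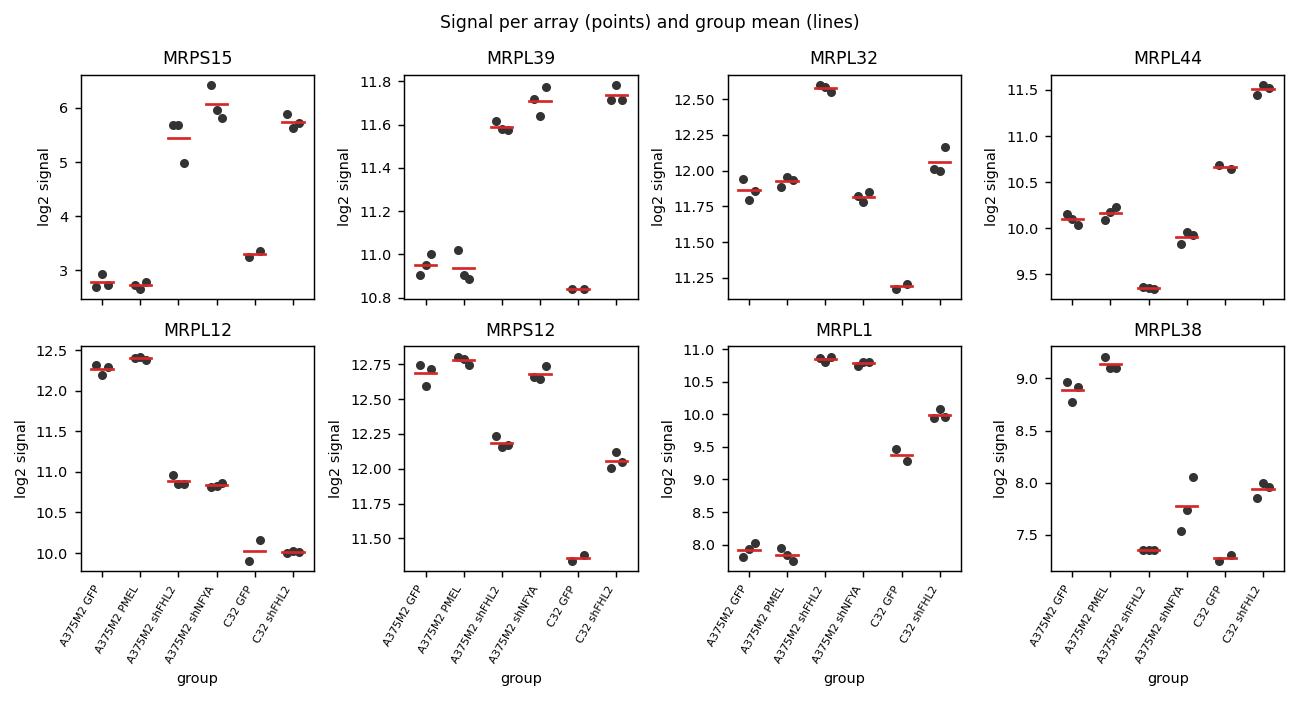
Log2 signal of 8 members on each array (points) with group means (lines), each panel on its own axis and C32 GFP with n = 2. MRPL32 is high with FHL2 shRNA in both lines and not with NFYA shRNA, and MRPL12 is low in both A375M2 shRNA groups and lowest in C32.

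PMEL expression in A375M2 went with small differences. Of the members 21 rose and 4 fell, against 22.1% and 17.8% of all genes (39.9% called). By 2-fold or more 0 members were called in either direction, against 0.521% of all genes higher and 1.62% lower. The median was 0.06, against 0.02 for all genes. The call counts depended on the third replicates: without both, 16 rose and 3 fell. The rises were led by MRPS18C (9.93, 9.95 and 9.97 against 9.50, 9.58 and 9.51, a difference of 0.42 ± 0.038), MRPS26 (0.35 ± 0.039), MRPL55 (0.30 ± 0.058), MRPS2 (0.27 ± 0.056) and MRPL34 (0.27). The falls were MRPL36 (12.80, 12.79 and 12.77 against 13.32, 13.15 and 13.27, -0.46 ± 0.049), MRPS6 (-0.44 ± 0.033), MRPS33 (-0.22) and MRPL57 (-0.12). The last 2 were not called without the third replicates of both groups (adjusted p = 0.073 and 0.063). 18S averaged 11.08 in the PMEL arrays against 12.52 with GFP, and the mean of the fibroblast markers ranged from 6.73 to 6.78 against 7.55 to 7.58. The part of these was not tested.

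The FHL2 shRNA difference in C32 was set against that in A375M2 by an interaction term. It was called for 61 of 73 members, 48 with a more positive difference in C32 and 13 with a more negative one, against 42.1% and 38.1% of all genes (80.2% called). By 2-fold or more there were 17 and 3, against 17.2% and 16.7%. The median was 0.42 for the members and 0.06 for all genes. Centring each array gave 41 and 16, and leaving out the third A375M2 GFP and PMEL arrays 46 and 14. The term contains the A375M2 comparison, in which shRNA and array set coincide, and the C32 spike-in difference given above.

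Most of the spread came from A375M2, where members lay between -2.68 and 2.93, while in C32 all but MRPS15 lay between -0.26 and 0.90. MRPL2 was lower in A375M2 and did not pass in C32 (interaction 2.70 ± 0.20). In C32 it averaged 4.30 with GFP and 4.32 with shFHL2, near the filter value of 4, and in A375M2 with shFHL2 it averaged 3.84. The part of low signal in this difference between the lines was not tested. MRPL38, MRPL4, MRPS5 and MRPL44 fell in A375M2 and rose in C32, with interactions of 2.20 ± 0.15, 1.94 ± 0.13, 1.64 ± 0.068 and 1.59 ± 0.071. MRPL44 read 9.37, 9.36 and 9.34 with shFHL2 against 10.15, 10.10 and 10.03 with GFP in A375M2, the reverse of its order in C32. MRPL1, MRPS18C, MRPL50 and MRPL19 rose in both lines and more in A375M2 (-2.32 ± 0.098, -1.27 ± 0.057, -0.92 ± 0.10 and -0.66 ± 0.072). MRPS6 rose in A375M2 and fell in C32 (-1.58 ± 0.049). MRPS15 rose in both, by 2.66 and 2.44, and its interaction was not called (-0.22 ± 0.27, adjusted p = 0.44). MRPL11 rose by 1.10 and 0.81, and its interaction was not called either (-0.29 ± 0.13, adjusted p = 0.056), but was called with arrays centred (-0.40) or quantile normalized (-0.44), and without A375M2 GFP replicate 1 (-0.33), A375M2 GFP replicate 3 (-0.34), A375M2 shFHL2 replicate 3 (-0.35) or C32 shFHL2 replicate 2 (-0.36).

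**Figure D4:**
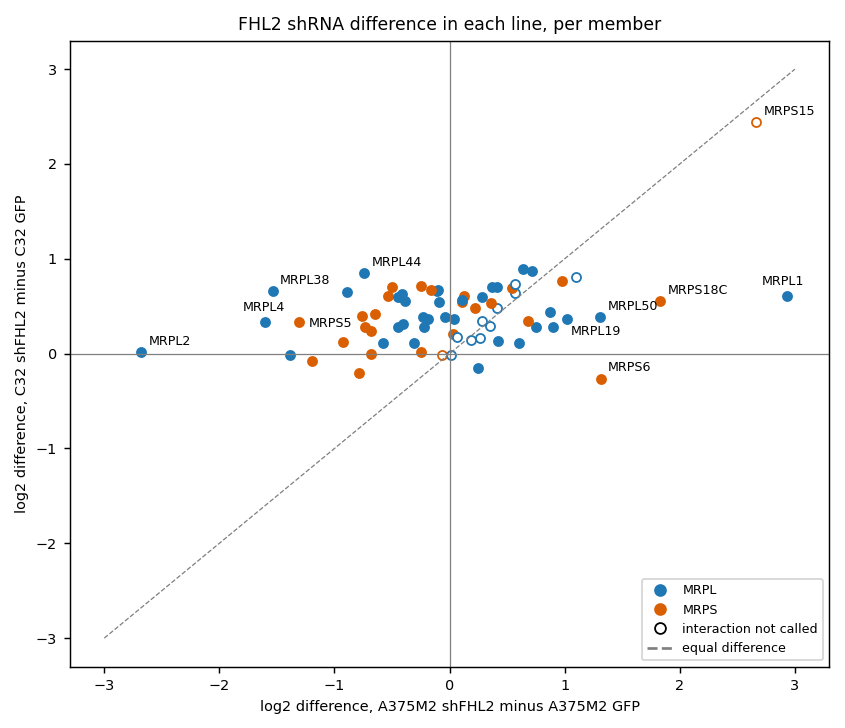
Log2 difference with FHL2 shRNA against GFP in A375M2 (x axis, n = 3 against 3) and in C32 (y axis, n = 3 against 2), 1 point per member, filled where the interaction was called. Members spread from -2.68 to 2.93 along the A375M2 axis and, apart from MRPS15, from -0.26 to 0.90 along the C32 axis.

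The 3 MRPS18 paralogs stand at different places in the ribosome and differed in pattern. MRPS18C, in the small subunit, was higher in every group than in A375M2 GFP (0.42 with PMEL, 1.83 with shFHL2, 1.96 with shNFYA and 0.96 in C32 GFP) and rose by 0.56 ± 0.042 with FHL2 shRNA in C32. MRPS18B, also in the small subunit, read 11.55, 11.47 and 11.49 with A375M2 GFP and fell with shFHL2 (-0.76 ± 0.052) and shNFYA (-0.80 ± 0.052), was lower in C32 (-1.05 ± 0.058) and rose in C32 with FHL2 shRNA (0.40 ± 0.058). MRPS18A, of the large subunit, had the narrowest range of group means of any member, 0.44. Its difference in C32 with FHL2 shRNA was 0.02 ± 0.079 and was not called, whereas its other probe set was called at -0.22.

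Where a member had more than 1 probe set, these could disagree. Of the 24 such members, 7 had probe sets called in opposite directions between C32 GFP and A375M2 GFP, 6 with shNFYA, 3 with shFHL2 in A375M2, 2 between the A375M2 shRNA groups, 1 with PMEL and 0 with FHL2 shRNA in C32, where 10 of 24 had every probe set called the same way. The interaction had 4. The members concerned were MRPL19, MRPL30, MRPL35, MRPL4, MRPL42, MRPL43, MRPL57, MRPS14 and MRPS16. For MRPL43 the probe set of highest signal differed by 0.25 and 0.13 with A375M2 shFHL2 and shNFYA, and a dimmer one by 3.30 and 4.37. For MRPS14 the values were 0.12 and 0.12 against -1.13 and -1.44, and for MRPL35 0.88 and 0.78 against -0.49 and -0.51 from a probe set averaging 3.06. For MRPL4 the selected set gave -1.08 with shNFYA and another 0.95. MRPL42 gave -0.28 and 0.25 with shNFYA from its brightest sets, and MRPL30 gave -0.41 and 0.32. For MRPL19 between the lines the sets gave 0.96, 1.05 and -1.05, and for MRPL57 -0.79, 0.85, 0.61 and -1.55. MRPS16 gave -0.20 and 0.66 with shNFYA. MRPS12, not among these since its brightest set was not called, gave 0.00, 1.58 and 0.60 with shNFYA. The arrays read the 3′ end of transcripts, and probe sets of a gene can read different transcript ends. These genes' directions in A375M2, between the lines and in the interaction therefore hold only for the probe set given.

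**Figure D5:**
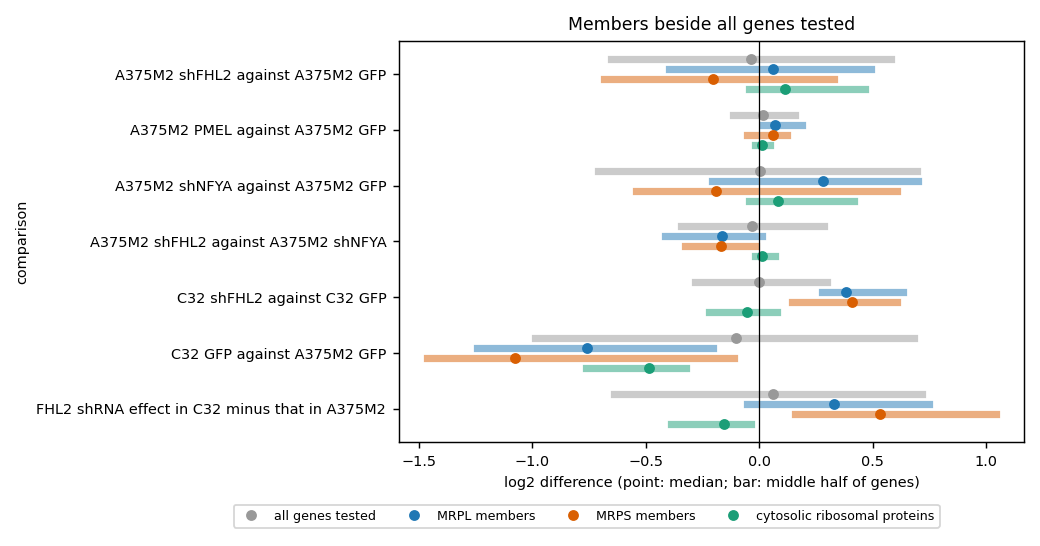
Median (points) and quartiles (bars) of log2 differences in each of 7 comparisons, for all 10940 genes tested, the 47 MRPL members, the 26 MRPS members and 51 cytosolic ribosomal proteins. In C32 with FHL2 shRNA the MRPL and MRPS medians are 0.38 and 0.41 and the cytosolic median is -0.05, while between C32 and A375M2 GFP all 3 are below 0 (-0.76, -1.08 and -0.49).

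Over the 6 group means, the genes outside the family whose pattern was closest to the mean of the members were ILKAP (Pearson r = 0.998), EIF3J (0.994), ISG20L2 (0.993), TUT1 (0.992) and MSANTD4 (0.992). These are descriptions over 6 points that share arrays and normalization.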

How the data were processed

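Biotin-labelled RNA from 18 samples was hybridised to Affymetrix 3′ expression arrays. The deposited values are log2 signals made by the authors with GCRMA, per the submitters' processing notes, with no version given. They ran from 0.53 to 16.7 over 23416 probe sets, with 0 missing. Scanner files were not used here.

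Probe sets naming 1 gene (20264) took current symbols by Entrez ID (20254 of them) from the RefSeq gene table. Probe sets at log2 4 or more on at least 3 arrays were kept, and the one of highest mean stood for each gene. limma 3.58.1 (R 4.3.3) fitted means of 6 groups over 17 arrays, with eBayes and a mean trend and Benjamini-Hochberg adjustment within each comparison. SE is that of the fit. The fit was tested on simulated data. The number of arrays limits the precision.

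Replicate numbers did not pair samples: deviations of same-numbered arrays correlated between -0.998 and 0.088. Named members were the 5 largest non-overlapping called changes each way per comparison, members with opposed probe sets, and a fixed set (the MRPS18 paralogs, MRPL28, stalk proteins, MRPL45, MRPL58, MRPL44, MRPS12 and MRPS30). From the other lists up to 4 genes were to be named. Members named as not called or by structural group, and MTFMT, TFAM, MYC, PPARGC1A, MRPL41, SARS2, PSMA2 and HELQ, are exceptions to it, picked once their values were known. Members and lists were chosen with earlier results of these data known. Alternatives covered the arrays, filter, floor, centring, quantile normalization, probe set choice, trend, array weights, replicate block and each array left out.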

Additional observations from a re-analysis of the deposited data

Results flagged for a closer look

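The FHL2 shRNA difference was not the same in both lines for 61 of 73 members. The test was the interaction term of limma (Benjamini-Hochberg adjusted p under 0.05). Of all genes 80.2% were called, so the share of members called in either direction was close to the background. The term contains the A375M2 comparison, in which shRNA and array set coincide, and the C32 spike-in difference given above. The differences in C32 minus those in A375M2 were furthest above 0 for MRPL2 (2.70), MRPL38 (2.20), MRPL4 (1.94), MRPS5 (1.64) and MRPL44 (1.59), on the log2 scale. They were furthest below 0 for MRPL1 (-2.32), MRPS6 (-1.58), MRPS18C (-1.27), MRPL50 (-0.92) and MRPL19 (-0.66). For MRPL38, MRPL4, MRPS5, MRPL44 and MRPS6 the direction was opposite in the lines. For MRPL1, MRPS18C, MRPL50 and MRPL19 it was the same. MRPL2 was called in A375M2 alone, and its signal in C32 lay near the filter value. The part of low signal in this was not tested.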

How the results depend on the processing

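Of the alternative counts of members called, 364 stayed within 1.5 times their value and 14 did not. Array weights gave 32 higher and 7 lower with PMEL, while the calls among all 10940 genes went from 4365 to 5440. The count lower with FHL2 shRNA in C32 was 1 with centred arrays, array weights, the replicate block, or without the third A375M2 GFP and PMEL arrays. Leaving out 1 array at a time gave 57 to 61 higher and 1 to 3 lower there. It gave 18 to 23 and 4 to 6 with PMEL, 29 to 32 and 32 to 34 with A375M2 shFHL2, and 36 to 38 and 26 to 29 with shNFYA. Between shFHL2 and shNFYA it gave 10 to 12 and 37 to 46, between C32 and A375M2 GFP 9 to 12 and 55 to 58, and in the interaction 44 to 48 and 13 to 14. With the replicate number as a block, counts were 59 and 1 for FHL2 shRNA in C32, 20 and 4 for PMEL, 31 and 33 for A375M2 shFHL2, 37 and 29 for shNFYA, 11 and 44 between them, 11 and 55 between the lines and 47 and 13 in the interaction. For named members 4093 alternatives kept direction and call, 49 gained a call, 54 lost it and 16 reversed. Reversals came from taking the probe set of largest variance, which is another probe set: MRPL35 (-0.49), MRPS12 (0.21) and MRPS14 (-1.13) with A375M2 shFHL2, MRPL35 (-0.51), MRPS12 (1.58) and MRPS14 (-1.44) with shNFYA, MRPL43 (-1.07) between the A375M2 shRNA groups and MRPS18A (-0.22) with FHL2 shRNA in C32. Between C32 and A375M2 GFP they were MRPL35 (1.19), MRPL43 (2.35), MRPL57 (0.61) and MRPS14 (0.73), and in the interaction MRPL35 (1.34) and MRPL57 (-1.15). Centring turned MRPS12 with shNFYA (0.12) and MRPL35 between the lines (0.12). For MRPS15, MRPL2 and MRPL41, signal was low in some groups, so the size of their differences is uncertain.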
